A study of Homo sapiens with 6 samples.

Results

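The genes described here are 34 genes of the amino acid programme that the transcription factor ATF4 controls. They were given as a list of gene symbols with no threshold on a measured value, although the list was drawn up with earlier results of these data known, and all 34 were found among the 17448 genes listed in the expression table. They fall into 8 amino acid transporters, 8 enzymes of serine synthesis and mitochondrial or cytosolic one-carbon metabolism, 7 other amino acid enzymes, and 11 stress transcription factors and further targets. The RNA came from HCC2814, an established human lung squamous cell carcinoma (LUSC) cell line, grown in DMEM with fetal bovine serum. The WT group (n = 3 samples) had received lentiviral CRISPR vectors with non-targeting control guide RNA, and the MLST8-KO group (n = 3 samples) had received guide RNA against MLST8, a subunit shared by the kinase complexes mTORC1 and mTORC2; the guide treatment lasted 48 to 72 hours and was followed by antibiotic selection, no cloning of this line is described, and whether the samples of a group share a guide is not stated. The paper's blots of this line number 3 control and 3 MLST8 guide samples, without saying how these relate to the sequenced samples. In those blots, MLST8 loss separated mTOR from RICTOR, a part of mTORC2, but not from RAPTOR, a part of mTORC1. Phosphorylation of the mTORC1 substrate S6K1 was reported as unchanged. The comparison of these groups asked how loss of mTORC2 changes tumor cell metabolism and immune regulation at the level of transcripts.

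ATF4 is a leucine zipper factor whose protein is made chiefly when translation initiation factor eIF2 is phosphorylated, for instance when an amino acid runs short, and mTORC1 activity also raises its translation. Paired with a C/EBP factor, it binds composite C/EBP-ATF elements and raises genes that import amino acids, make serine, glycine, asparagine and proline, and feed one-carbon units from serine into folate in the mitochondrion. Because much of this control acts on translation, the ATF4 transcript is an incomplete readout of the ATF4 protein, which was not measured here.

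Promoters of 28 of the 34 genes were matched in a RefSeq table of the GRCh38.p14 assembly, each running from 250 bases before to 50 bases after the gene start that the table gives. PSPH, SHMT2, ALDH1L2, PYCR1, GPT2 and NUPR1 were not matched. The core of the composite element, written TGATGNAA with N for any base and searched on both strands, was present in 7 of the 28 promoters (25%), against 1003 of all 27305 promoters in the table (3.67%). The palindromic cAMP response element TGACGTCA, which differs from that core inside its first half-site and so cannot match at the same position, was in 0 of the 28 and in 540 of all promoters (1.98%). The 34 genes were listed as genes that ATF4 controls, so the larger share of the composite core among them is not a finding of these samples. The 7 matches are printed on the strand of their gene because they allow the measured direction of each gene to be read beside its sequence. Capitals mark the 8 bases of the match, which reads as the reverse complement where the core lies on the opposite strand, with 11 bases on each side except at SLC3A2, where the promoter window ends. Positions are counted from the gene start, so that the first base of the transcript is base 0.
ASNS, chr7:97872458-97872487, minus strand, match beginning 68 bases before the start: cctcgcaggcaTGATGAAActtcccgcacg
MTHFD1L, chr6:150866346-150866375, plus strand, 129 bases before the start: gccgccggctcTGATGCAAtcgcgccgggc
GOT1, chr10:99430804-99430833, minus strand, 198 bases before the start, opposite strand: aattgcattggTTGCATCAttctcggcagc
CHAC1, chr15:40953251-40953280, plus strand, 209 bases before the start, opposite strand: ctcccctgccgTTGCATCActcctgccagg
SLC38A1, chr12:46266502-46266531, minus strand, lying across the start: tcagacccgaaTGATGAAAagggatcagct
SLC7A1, chr13:29595663-29595692, minus strand, beginning at base 7 of the transcript: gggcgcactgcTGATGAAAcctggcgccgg
SLC3A2, chr11:62881725-62881748, plus strand, beginning at base 37 of the transcript, opposite strand: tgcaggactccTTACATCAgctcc

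The ASNS match is part of the nutrient-sensing response element, through which ATF4 is known to raise asparagine synthetase during amino acid shortage. Its setting is given by the 120 bases that end at the gene start, chr7:97872409-97872528 on the minus strand, with the match again in capitals.
ASNS promoter: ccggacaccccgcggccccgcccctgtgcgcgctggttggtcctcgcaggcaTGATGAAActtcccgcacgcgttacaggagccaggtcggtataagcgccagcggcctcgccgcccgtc
Read against the expression results that follow, the match was present in 2 of 7 matched promoters of genes that were lower in MLST8-KO cells, in 1 of 4 of those that were higher, and in 4 of 17 of the others. A match is a run of letters in a window and was not tested as a binding site.

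Estimated read counts per gene summed to 14381673 to 15318434 in the WT and 15080116 to 15744154 in the MLST8-KO samples. Levels are given as CPM, which are counts scaled to library sizes adjusted by TMM, unless TPM, which are scaled by gene length as well, are named. MLST8 itself had 58.0, 56.9 and 60.7 CPM in WT replicates 1 to 3 and 25.5, 38.9 and 25.7 CPM in MLST8-KO replicates 1 to 3. It was lower in every MLST8-KO sample (log2 fold change -0.96, standard error (SE) 0.15, adjusted p = 0.00339 in edgeR's quasi-likelihood test), although a guide that disrupts the reading frame need not remove the transcript. The squamous markers KRT5, KRT6A, KRT14, KRT17, TP63, SOX2, DSG3 and EPCAM were all detected. They ranged from 13.4 CPM (SOX2, WT replicate 3) to 8255 CPM (KRT5, MLST8-KO replicate 1). Their sum made up 1.33% to 2.05% of counts in WT and 2.45% to 2.75% in MLST8-KO samples. For 7 of the 8, every MLST8-KO sample lay above every WT sample, as for 24.8% of all genes tested. MLST8-KO replicate 1 stood apart in holding transcripts of 8 hepatocyte and yolk sac genes, such as AFP and FGA, at 4155 counts in sum (0.0276% of the library), against 8 to 111 counts in the other samples. Sums of the fibroblast list were 457 to 605 counts and those of the endothelial list 27 to 51, while the leukocyte list reached 629 to 1084 counts, nearly all from CD68, with PTPRC at 0 or 1. The part of the squamous and hepatic transcripts in the results below was not tested, and counts are also given without MLST8-KO replicate 1.

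Of the 15 enzymes that make amino acids and one-carbon units, 8 were lower and 1 was higher in MLST8-KO cells, the lower ones led by ASNS, PYCR1, GPT2 and MTHFD2. The stress target TRIB3 was lower as well, while the transporters SLC38A2, SLC6A9 and SLC7A1 and the cytosolic enzyme SHMT1 were higher. ATF4 itself did not pass the test. Of the 34 genes, 11 were lower (32.4%), 4 were higher (11.8%) and 19 did not pass an adjusted p of 0.05 in edgeR's quasi-likelihood test. Among all 12951 genes tested the shares were 15.7% lower and 16.3% higher (2030 and 2116 genes, or 1559 and 2546 with upper quartile scaling). Every MLST8-KO sample lay below every WT sample for 13 genes (38.2%, against 24.2% of all genes) and above for 5 (14.7%, against 24.8% of all genes), with the groups overlapping for the remaining 16. The median log2 fold change was -0.10 over the 34 genes and 0.00 over all genes tested. With TPM tested in limma the split of the 34 genes was 6 lower and 6 higher, where 9.16% of all genes were lower and 22.1% higher on log2(TPM + 1). Without MLST8-KO replicate 1 the split in edgeR was 3 lower and 1 higher, where 6.5% of all genes were lower and 7.49% higher. In bulk RNA, fewer cells expressing a gene and less RNA per cell cannot be told apart. The labels number the samples without saying that they came from separate cultures, so the p-values measure only the spread between these samples, which may be technical.

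**Figure D1:**
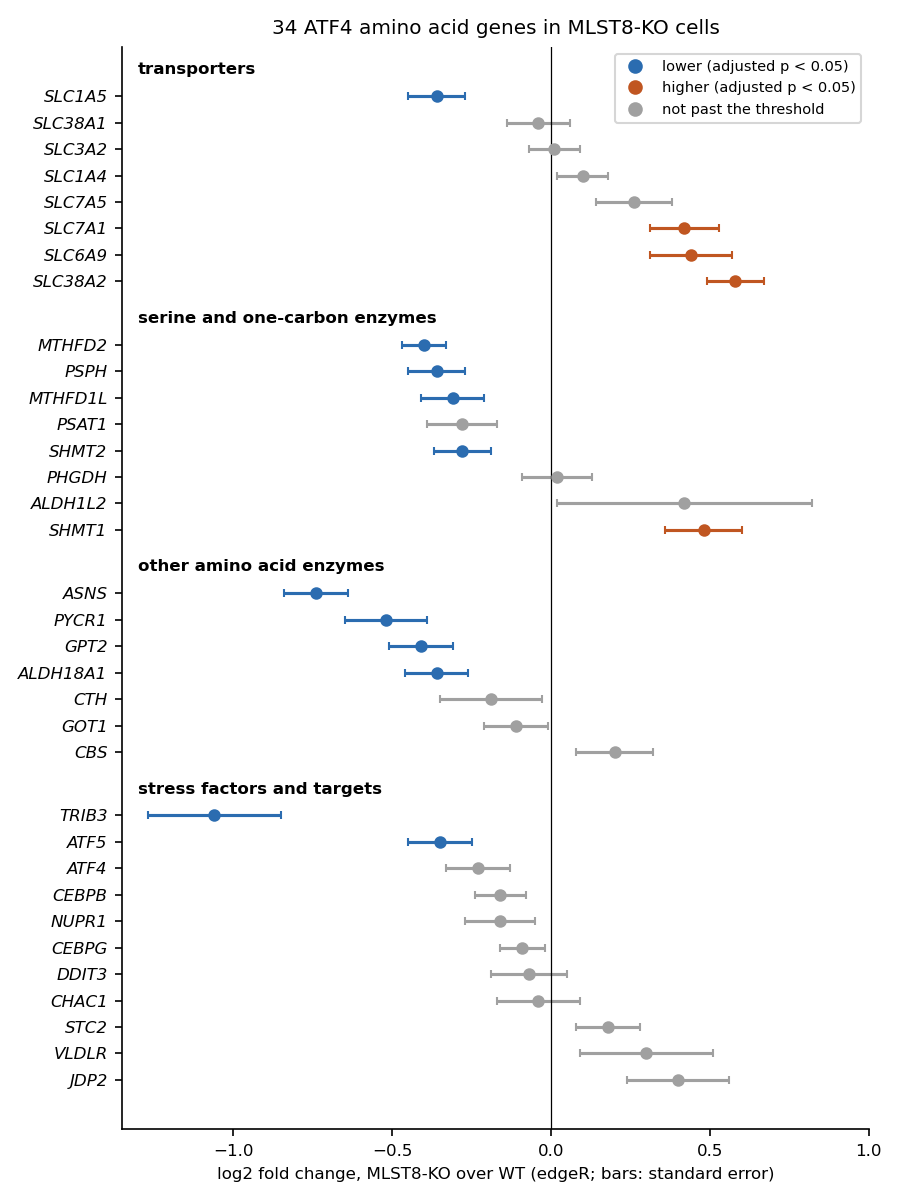
Log2 fold change of each of the 34 genes (x axis, MLST8-KO over WT, 3 samples each) by functional group, with bars for the standard error of the edgeR fit and colors for genes past an adjusted p of 0.05. TRIB3 (-1.06) and ASNS (-0.74) lie farthest to the left, SLC38A2 (0.58) and SHMT1 (0.48) farthest to the right.

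**Figure D2:**
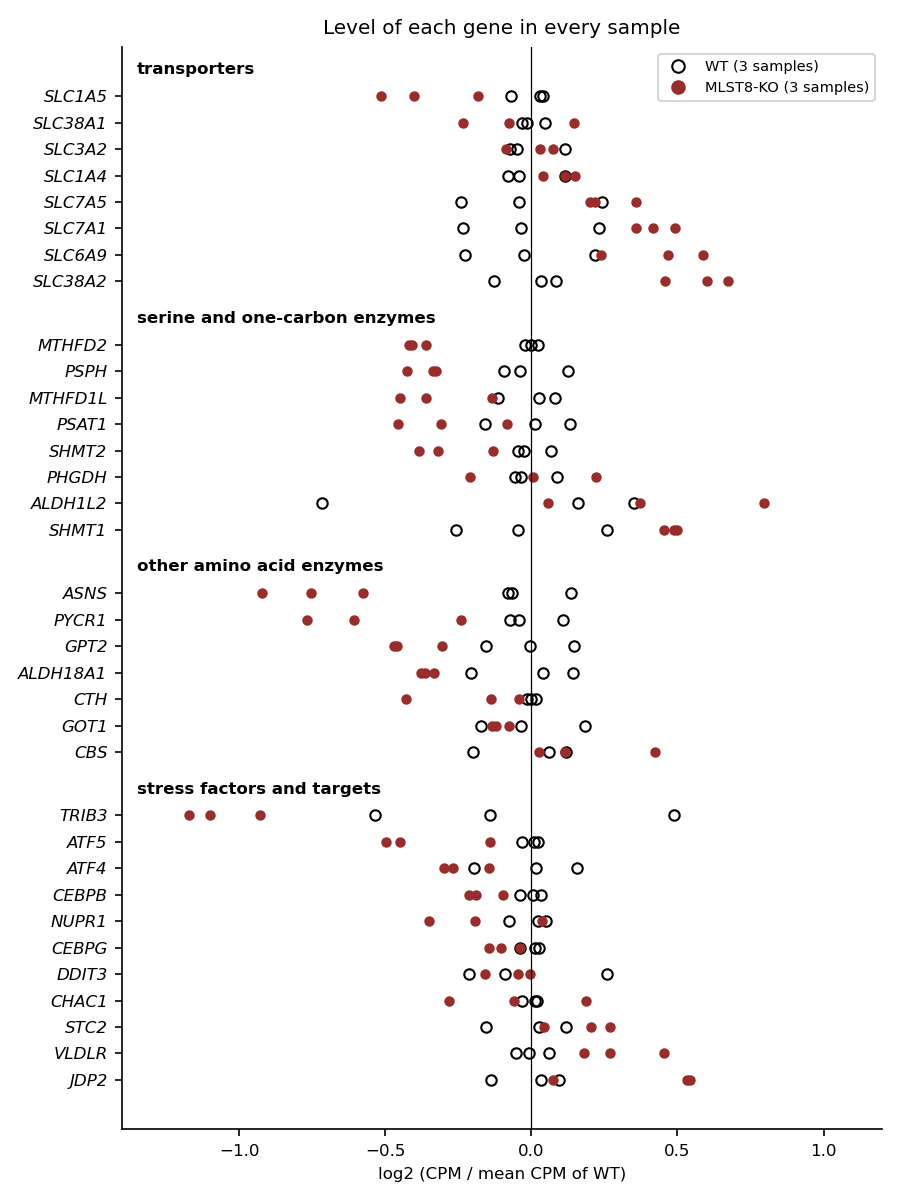
Level of each of the 34 genes in every sample, as the log2 ratio of its CPM to the mean CPM of the 3 WT samples (x axis), with open circles for WT and filled circles for MLST8-KO. All 3 MLST8-KO samples lie to the left of all WT samples for 13 genes and to the right for 5. These are 38.2% and 14.7% of the 34, against 24.2% and 24.8% of all genes tested.

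Among the 8 transporters, 3 rose, 1 fell and 4 did not pass the test, with a median log2 fold change of 0.18. That was 37.5% higher and 12.5% lower, against 16.3% and 15.7% of all genes tested. Without MLST8-KO replicate 1, 1 rose and 0 fell, where 7.49% of all genes were higher and 6.5% lower. SLC38A2 (SNAT2), a sodium-coupled importer of small neutral amino acids that is known to respond to amino acid shortage, had 227, 219 and 196 CPM in WT and 325, 341 and 294 CPM in MLST8-KO samples. All MLST8-KO samples exceeded all WT samples, and the level was higher by 49.6% (log2 0.58, SE 0.09, adjusted p = 0.00334). SLC38A2 passed the test in each fit that left out 1 sample, with log2 fold changes of 0.52 to 0.64.

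SLC7A1 and SLC6A9 rose by smaller amounts. SLC7A1 (CAT1), which carries arginine and lysine, had 354, 294 and 256 CPM in WT against 402, 424 and 386 CPM in MLST8-KO samples, and its log2 fold change was 0.42 (SE 0.11, adjusted p = 0.018). SLC6A9 (GlyT1), a glycine transporter, had 62.7, 53.0 and 46.0 CPM in WT against 74.6, 63.6 and 80.9 CPM in MLST8-KO samples (log2 0.44, SE 0.13, adjusted p = 0.0244). For both genes the groups did not overlap, but WT replicate 1 came close to the MLST8-KO range, and neither kept its call in the fits that omitted WT replicate 2 or MLST8-KO replicate 1 (SLC7A1 also without MLST8-KO replicate 2, SLC6A9 also without MLST8-KO replicate 3).

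SLC1A5 (ASCT2), the main exchanger for glutamine in many tumor cells, went the other way. It had 862, 855 and 798 CPM in WT and 635, 587 and 739 CPM in MLST8-KO samples, a 1.28-fold lower level (log2 -0.36, SE 0.09, adjusted p = 0.0179) with no overlap. The fall did not pass the test with TPM in limma, nor without WT replicate 2, MLST8-KO replicate 1 or MLST8-KO replicate 2. SLC7A5 (LAT1), which brings in leucine and other large neutral amino acids, had 2741, 2252 and 1965 CPM in WT and 2696, 2666 and 2972 CPM in MLST8-KO samples. WT replicate 1 lay within the MLST8-KO range, and the log2 fold change of 0.26 (SE 0.12) had an adjusted p of 0.106 in edgeR. SLC7A5 passed the test as higher with TPM in limma and without WT replicate 1, where the log2 fold change was 0.40 and the adjusted p 0.00501. SLC3A2, the heavy chain that carries SLC7A5 to the membrane, ranged from 821 to 934 CPM in WT and from 812 to 908 CPM in MLST8-KO samples (log2 0.01, SE 0.08). SLC38A1 (SNAT1, log2 -0.04, SE 0.10), a relative of SLC38A2 and its neighbor on chromosome 12, and SLC1A4 (ASCT1, log2 0.10, SE 0.08), which exchanges alanine and serine, also had overlapping groups.

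The ratio of TPM between 2 transporters in the same sample does not depend on library scaling. SLC7A5 to SLC3A2 was 1.21, 1.14 and 0.968 in WT and 1.27, 1.35 and 1.35 in MLST8-KO samples (1.10 ± 0.123 against 1.32 ± 0.0442, SD, n = 3), so the light chain was higher relative to its heavy chain in every MLST8-KO sample. SLC1A5 to SLC38A2, a pair chosen after their opposite changes were seen, was 7.38, 7.24 and 7.43 in WT and 3.72, 3.29 and 4.66 in MLST8-KO samples. Both ratios separated the groups without overlap and are given as descriptions without a test.

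Among the 8 enzymes of serine synthesis and one-carbon metabolism, 4 fell, 1 rose and 3 did not pass the test, and the median log2 fold change was -0.28. That was 50% lower and 12.5% higher, against 15.7% and 16.3% of all genes tested. Without MLST8-KO replicate 1, 1 fell and 0 rose, where 6.5% of all genes were lower and 7.49% higher. MTHFD2, the mitochondrial methylene-tetrahydrofolate dehydrogenase that many tumors express at high levels, had 225, 232 and 228 CPM in WT and 172, 171 and 178 CPM in MLST8-KO samples. The samples of each group lay close together and the groups well apart, and the 1.32-fold lower level (log2 -0.40, SE 0.07, adjusted p = 0.00448) passed the test in each fit that left out 1 sample.

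Serine is made from a glycolytic intermediate by PHGDH, PSAT1 and PSPH in turn. The last of these, the phosphatase PSPH, had 42.9, 41.3 and 48.1 CPM in WT and 32.8, 34.9 and 35.2 CPM in MLST8-KO samples and fell by 0.36 on the log2 scale (SE 0.09, adjusted p = 0.0144; 0.0717 without MLST8-KO replicate 1). PSAT1, the transaminase of the second step, had 338, 311 and 276 CPM in WT and 249, 225 and 291 CPM in MLST8-KO samples, where MLST8-KO replicate 3 exceeded WT replicate 3 (log2 -0.28, SE 0.11, adjusted p = 0.075). It passed the test as lower in DESeq2 and when replicate 3 of either group was left out. PHGDH, which opens the pathway, had 131 to 145 CPM in WT and 118 to 159 CPM in MLST8-KO samples (log2 0.02, SE 0.11, adjusted p = 0.906). The first enzyme thus had overlapping groups centered near the same value, and the last did not overlap.

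The 2 serine hydroxymethyltransferases, which turn serine into glycine and a one-carbon unit, moved in opposite directions. Cytosolic SHMT1 had 42.5, 34.4 and 29.7 CPM in WT and 49.8, 50.2 and 48.7 CPM in MLST8-KO samples, a 1.39-fold rise (log2 0.48, SE 0.12, adjusted p = 0.0149). Mitochondrial SHMT2 had 140, 138 and 149 CPM in WT and 114, 109 and 130 CPM in MLST8-KO samples, a fall of 17.6% (log2 -0.28, SE 0.09, adjusted p = 0.0338). In TPM, SHMT2 exceeded SHMT1 by 3.53, 4.42 and 5.45 times in WT and by 2.45, 2.37 and 2.91 times in MLST8-KO samples (4.47 ± 0.96 against 2.58 ± 0.29, SD, n = 3). Mitochondrial SHMT2 remained the more abundant transcript in all 6 samples, and the ratio did not overlap between groups. The call on SHMT2 was lost with upper quartile scaling, with TPM in limma and in 4 of the 6 fits that left out 1 sample. SHMT1 passed the test in all 8 other alternatives but not without WT replicate 2, MLST8-KO replicate 1 or MLST8-KO replicate 2.

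MTHFD1L, which releases formate from the mitochondrial pathway, had 49.8, 51.7 and 45.2 CPM in WT and 38.1, 35.8 and 44.5 CPM in MLST8-KO samples, so that WT replicate 3 and MLST8-KO replicate 3 nearly met (log2 -0.31, SE 0.10, adjusted p = 0.0411). That call was also lost with upper quartile scaling, with TPM in limma, with the replicate number as a block and in 3 of the fits that left out 1 sample. The ratio of MTHFD2 to MTHFD1L in TPM was 6.54 ± 0.246 in WT and 6.50 ± 0.657 in MLST8-KO samples (SD, n = 3), with overlapping groups. ALDH1L2, a mitochondrial enzyme that oxidizes formyl-tetrahydrofolate to carbon dioxide, was near the limit of detection with 5 to 16 counts per sample, and its log2 fold change of 0.42 had an SE of 0.40.

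**Figure D3:**
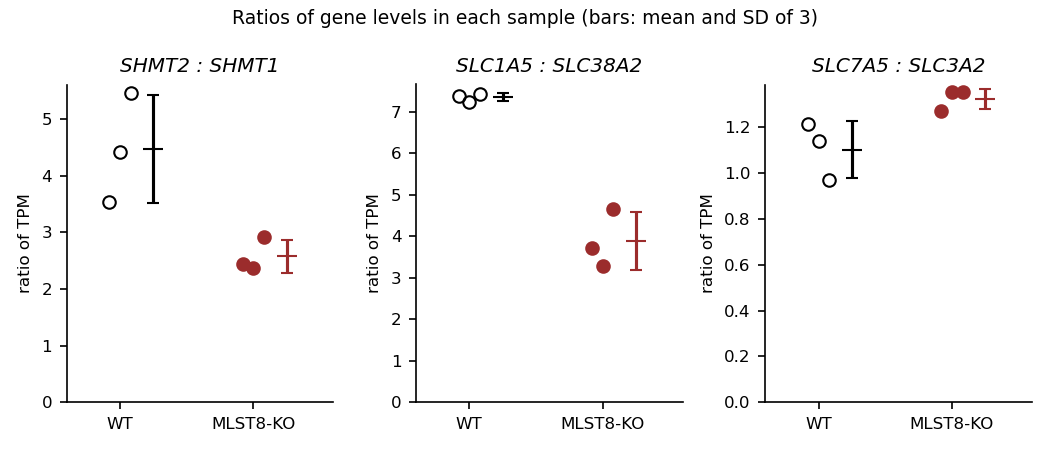
Ratio of TPM between gene pairs in each sample (y axis, starting at 0), with open circles for the 3 WT samples, filled circles for the 3 MLST8-KO samples and bars for mean and SD. SHMT2 to SHMT1 and SLC1A5 to SLC38A2 were lower, and SLC7A5 to SLC3A2 higher, in all MLST8-KO samples than in any WT sample.

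Among the 7 other amino acid enzymes, 4 fell, 0 rose and 3 did not pass the test, and the median log2 fold change was -0.36. That was 57.1% lower and 0% higher, against 15.7% and 16.3% of all genes tested. The count that rose was also 0 in DESeq2 and limma and at an unadjusted p under 0.05 in edgeR. Without MLST8-KO replicate 1, only ASNS passed the test, where 6.5% of all genes tested were lower. ASNS, which makes asparagine from aspartate and glutamine and whose promoter is printed above, had 217, 219 and 252 CPM in WT and 136, 121 and 154 CPM in MLST8-KO samples. It was 1.67-fold lower without overlap (log2 -0.74, SE 0.10, adjusted p = 0.00281), and the fall was between -0.84 and -0.66 on the log2 scale in the fits that left out 1 sample, all past the threshold. After TRIB3, ASNS had the largest change of the 34 genes.

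The enzymes of proline synthesis fell together. ALDH18A1, which makes the precursor pyrroline-5-carboxylate from glutamate, had 102, 121 and 130 CPM in WT and 91.5, 93.5 and 90.5 CPM in MLST8-KO samples (log2 -0.36, SE 0.10, adjusted p = 0.0202). PYCR1, the mitochondrial reductase that completes proline, had 230, 235 and 261 CPM in WT and 159, 142 and 205 CPM in MLST8-KO samples, a 1.43-fold lower level (log2 -0.52, SE 0.13, adjusted p = 0.0128). MLST8-KO replicate 3 was the highest of its group for PYCR1 and still lay below the lowest WT sample. PYCR3, the cytosolic reductase for the same step and no member of the list, rose from 16.8, 14.9 and 15.7 CPM to 29.7, 22.7 and 30.3 CPM (log2 0.80, SE 0.13, adjusted p = 0.00359), so the mitochondrial and cytosolic forms moved in opposite directions, as SHMT2 and SHMT1 did.

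GPT2, the mitochondrial transaminase that makes alanine from pyruvate, had 45.9, 51.0 and 56.6 CPM in WT and 37.2, 36.9 and 41.4 CPM in MLST8-KO samples (log2 -0.41, SE 0.10, adjusted p = 0.0128). GPT2 and PYCR1 each lost the call when replicate 1 or replicate 2 of MLST8-KO was left out, and ALDH18A1 without WT replicate 2, without any of the MLST8-KO samples in turn, or with TPM in limma. GOT1, the cytosolic aspartate transaminase, overlapped between groups at 50.7 to 64.9 CPM in WT and 52.0 to 54.2 CPM in MLST8-KO samples (log2 -0.11, SE 0.10). CTH, which releases cysteine in transsulfuration, was scarce, at 5.77, 5.72 and 5.84 CPM in WT and 5.61, 5.25 and 4.29 CPM in MLST8-KO samples; all MLST8-KO samples were below the WT samples, but with an SE of 0.16 its log2 fold change of -0.19 had an adjusted p of 0.383. CBS, the enzyme before CTH, had 31.7 to 39.5 CPM in WT and 37.0 to 48.8 CPM in MLST8-KO samples (log2 0.20, SE 0.12, adjusted p = 0.238). Its near-identical copy CBSL can share reads with it, and summed counts of both were 606, 587 and 510 in WT and 703, 695 and 858 in MLST8-KO samples (log2 0.29, SE 0.11, adjusted p = 0.0602), so the value of CBS alone is uncertain.

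Among the 11 stress factors and targets, 2 fell, 0 rose and 9 did not pass the test in edgeR, with a median log2 fold change of -0.09. The lower share, 18.2%, was near the 15.7% of all genes tested, of which 16.3% were higher. The count that rose was 0 in DESeq2 and 1 (JDP2) in limma on TPM, as it was at an unadjusted p under 0.05 in edgeR. Without MLST8-KO replicate 1, 1 fell, where 6.5% of all genes were lower. TRIB3, a pseudokinase that ATF4 and CHOP raise and that feeds back on ATF4, had the largest change of the 34 genes. It had 244, 321 and 496 CPM in WT and 157, 165 and 186 CPM in MLST8-KO samples. The WT samples were spread widely, with replicate 3 the highest, while the MLST8-KO samples lay close together, all below WT replicate 1. TRIB3 was 2.09-fold lower (log2 -1.06, SE 0.21, adjusted p = 0.00586), and the log2 fold change ranged from -1.27 to -0.74 in the fits that left out 1 sample, each of which kept the call.

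ATF4 had 260, 301 and 332 CPM in WT and 247, 242 and 269 CPM in MLST8-KO samples. MLST8-KO replicate 3 lay above WT replicate 1, and the log2 fold change of -0.23 (SE 0.10) had an adjusted p of 0.0874. Without WT replicate 1 the adjusted p was 0.0118. ATF5, a related factor under similar translational control, had 68.9, 67.0 and 69.5 CPM in WT and 48.5, 50.1 and 62.1 CPM in MLST8-KO samples and fell without overlap (log2 -0.35, SE 0.10, adjusted p = 0.0247), a call lost without WT replicate 2, MLST8-KO replicate 1 or MLST8-KO replicate 2 and with TPM in limma.

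The partners and relatives of ATF4 had small differences. CEBPB, a C/EBP factor that dimerizes with ATF4, had 107, 105 and 102 CPM in WT and 90.3, 91.9 and 97.8 CPM in MLST8-KO samples, below WT in every sample, but its log2 fold change of -0.16 (SE 0.08) had an adjusted p of 0.118. CEBPG, the other C/EBP partner of the list, had 112 to 117 CPM in WT and 104 to 112 CPM in MLST8-KO samples (log2 -0.09, SE 0.07). DDIT3 (CHOP), the factor tied to cell death in prolonged stress, had 30.1 to 41.8 CPM in WT and 31.3 to 34.8 CPM in MLST8-KO samples (log2 -0.07, SE 0.12). Of these factors none passed the test in the main comparison, and DDIT3 and CEBPG changed sign with TPM. JDP2, a leucine zipper factor of the AP-1 family, had 9.55, 8.47 and 9.96 CPM in WT and 13.6, 9.82 and 13.5 CPM in MLST8-KO samples, with MLST8-KO replicate 2 inside the WT range (log2 0.40, SE 0.16, adjusted p = 0.0735). JDP2 passed the test as higher with TPM in limma, with the replicate number as a block and without MLST8-KO replicate 2. NUPR1, a small stress-induced chromatin protein, had overlapping groups at 35.4 to 38.7 CPM in WT and 29.3 to 38.3 CPM in MLST8-KO samples (log2 -0.16, SE 0.11).

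CHAC1, which degrades glutathione and is a classic target of the ATF4 and CHOP pathway, had overlapping groups, at 16.4, 16.3 and 15.8 CPM in WT and 15.5, 13.3 and 18.4 CPM in MLST8-KO samples (log2 -0.04, SE 0.13, adjusted p = 0.849). The difference in change between CHAC1 and TRIB3 was not tested. STC2, a secreted glycoprotein, had a log2 fold change of 0.18 (SE 0.10) with overlapping groups. VLDLR, a lipoprotein receptor, was above WT in every MLST8-KO sample but at only 29 to 44 counts (log2 0.30, SE 0.21, adjusted p = 0.288).

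Per gene length, the transporters SLC7A5, SLC3A2 and SLC1A5 had the highest mean levels of the list in both groups, and the other 5 transporters lay in its middle, from 32.2 to 80.7 TPM in WT. SLC7A5 averaged 949 TPM in WT and 1219 TPM in MLST8-KO samples and SLC3A2 averaged 855 and 922 TPM, and in WT their ranges of 781 to 1130 and 806 to 937 TPM overlapped, so their order in WT was not resolved. SLC1A5 followed at 593 and 501 TPM and ATF4 at 412 and 378 TPM. TRIB3, next in the WT order, spanned 207 to 410 TPM there, a range that took in PSAT1 (231 to 293 TPM), PYCR1 (242 to 264 TPM) and ASNS in part (200 to 225 TPM). In MLST8-KO samples TRIB3 averaged 153 TPM, and ASNS (136 TPM), PHGDH (142 TPM), SLC38A2 (130 TPM) and MTHFD2 (165 TPM) lay near it. At the low end were CTH (4.75 and 4.58 TPM), VLDLR (0.837 and 1.12 TPM) and ALDH1L2 (0.173 and 0.233 TPM).

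**Figure D4:**
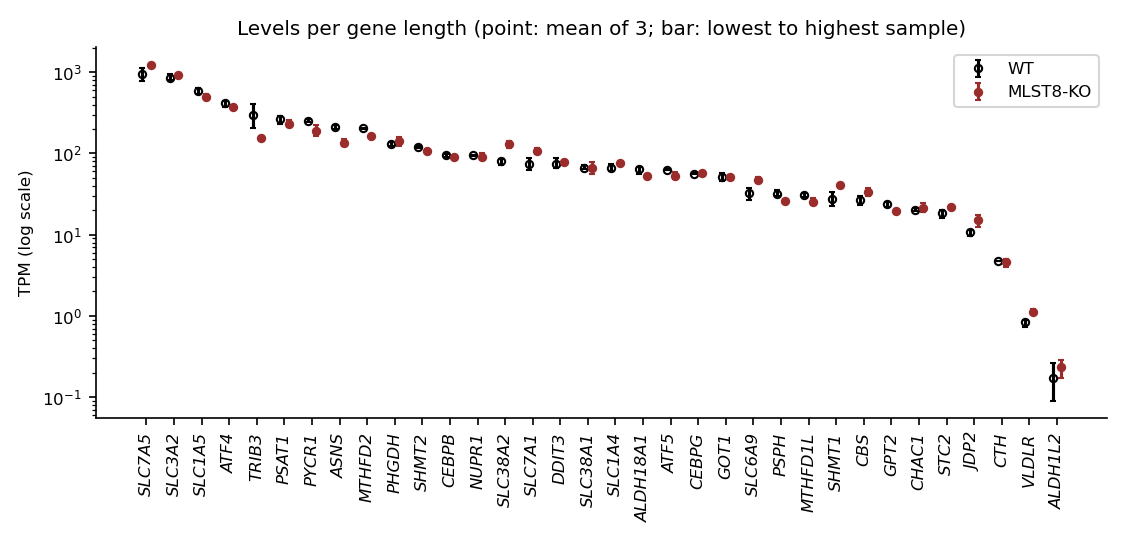
Levels of the 34 genes in TPM (y axis, log scale), ordered by the WT mean, with points for the mean of 3 samples and bars from the lowest to the highest sample. Levels ran from 949 TPM for SLC7A5 to 0.173 TPM for ALDH1L2 in WT.

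Summed over each functional group, the 8 transporters came to 3053, 2693 and 2407 TPM in WT and 3063, 3006 and 3142 TPM in MLST8-KO samples, with WT replicate 1 at the MLST8-KO level. The 8 serine and one-carbon enzymes came to 849, 814 and 761 TPM in WT and 730, 698 and 791 TPM in MLST8-KO samples, which overlapped. The 7 other amino acid enzymes came to 604, 620 and 669 TPM in WT and 475, 450 and 536 TPM in MLST8-KO samples. Only this last sum and that of the stress group, at 1003 to 1298 TPM in WT and 940 to 1000 TPM in MLST8-KO samples, separated the groups, the latter by a small margin. That margin was smaller than the difference of TRIB3 alone, at 207, 272 and 410 TPM in WT and 147, 154 and 159 TPM in MLST8-KO samples. It is therefore not a property of the 11 stress genes as a group, of which 9 did not pass the test.

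Genes around the list were described from 4 further lists. Of 15 tested eIF2α kinases, phosphatase subunits and other genes of the integrated stress response, 8 fell and 3 rose. That was 53.3% lower and 20% higher, against 15.7% and 16.3% of all genes tested. The median log2 fold change was -0.35. Without MLST8-KO replicate 1, 4 fell and 0 rose, where 6.5% of all genes were lower and 7.49% higher. GDF15, a secreted stress cytokine, had 44.5, 52.4 and 77.6 CPM in WT and 16.3, 19.6 and 24.7 CPM in MLST8-KO samples, 2.88-fold lower without overlap (log2 -1.52, SE 0.21, adjusted p = 0.00281). As with TRIB3, WT replicate 3 was the highest sample. PPP1R15B, the constitutive subunit of the eIF2 phosphatase, fell by 0.66 on the log2 scale (SE 0.11, adjusted p = 0.00397), and the hormone FGF21 fell by 1.30 (SE 0.42, adjusted p = 0.0371) at 6 to 26 counts per sample, a call lost in DESeq2 and in 4 of the 6 fits that left out 1 sample. DDIT4 (log2 0.59, SE 0.14, adjusted p = 0.0111) and SESN2 (log2 0.33, SE 0.10, adjusted p = 0.0249), both inhibitors of mTORC1, and the ubiquitin ligase gene FBXO32 (log2 0.57, SE 0.17, adjusted p = 0.0309) rose, but none of these 3 passed the test without MLST8-KO replicate 1. DDIT4 lost its call in 2, SESN2 in 3 and FBXO32 in all 6 of the fits that left out 1 sample, and FBXO32 also in DESeq2 and limma.

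Of the 20 cytosolic aminoacyl-tRNA synthetases, many of which are ATF4 targets, 11 fell, 0 rose and 9 did not pass the test. That was 55% lower and 0% higher, against 15.7% and 16.3% of all genes tested. The median log2 fold change was -0.25. For 15 of the 20 (75%, against 24.2% of all genes) every MLST8-KO sample was below every WT sample. The count that fell was 5 in limma on TPM, where 9.16% of all genes were lower. It was 4 without MLST8-KO replicate 1, where 6.5% were lower. The count that rose was 0 in DESeq2, in limma and at an unadjusted p under 0.05 in edgeR. CARS1, for cysteine, had 123, 142 and 154 CPM in WT and 99.0, 90.6 and 105 CPM in MLST8-KO samples (log2 -0.51, SE 0.10, adjusted p = 0.00618). GARS1, for glycine, had 473, 476 and 493 CPM in WT and 358, 345 and 365 CPM in MLST8-KO samples (log2 -0.43, SE 0.07, adjusted p = 0.0037). RARS1, for arginine, fell by 0.44 on the log2 scale (SE 0.10, adjusted p = 0.0115) and lost its call without MLST8-KO replicate 2.

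Of 17 tested amino acid transporters outside the list, 5 rose (29.4%) and 1 fell (5.88%), against 16.3% and 15.7% of all genes tested. The median log2 fold change was 0.26. Without MLST8-KO replicate 1, 0 rose and 1 fell, where 7.49% of all genes were higher and 6.5% lower. SLC1A3, a glutamate and aspartate importer, had 4.51, 4.82 and 3.25 CPM in WT and 8.26, 7.66 and 6.15 CPM in MLST8-KO samples (log2 0.81, SE 0.20, adjusted p = 0.013). SLC38A9, a lysosomal arginine sensor of mTORC1, rose by 0.31 (SE 0.10, adjusted p = 0.0366), and SLC38A5, a system N transporter, by 1.63 (SE 0.54, adjusted p = 0.0424) at only 3 to 37 counts per sample. Both lost their calls in DESeq2 and in 5 of the 6 fits that left out 1 sample, and SLC1A3 lost its call in 2 of the 6. The taurine transporter SLC6A6 had 162, 204 and 259 CPM in WT and 101, 108 and 97.2 CPM in MLST8-KO samples, 2.04-fold lower (log2 -1.03, SE 0.14, adjusted p = 0.00281).

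Of 26 tested enzymes of folate, glycine, proline, methionine and transamination outside the list, 6 fell and 6 rose. That was 23.1% each way, against 15.7% lower and 16.3% higher of all genes tested. The median log2 fold change was -0.08. Without MLST8-KO replicate 1, 3 fell and 3 rose, where 6.5% of all genes were lower and 7.49% higher. ASS1, which begins arginine synthesis, had 259, 244 and 271 CPM in WT and 132, 128 and 186 CPM in MLST8-KO samples (log2 -0.79, SE 0.13, adjusted p = 0.00388), whereas ASL, the enzyme that follows it, rose from 5.51 to 9.42 CPM in WT to 10.1 to 12.2 CPM in MLST8-KO samples (log2 0.67, SE 0.20, adjusted p = 0.028). MAT2A, which makes S-adenosylmethionine, fell by 0.61 on the log2 scale (SE 0.11, adjusted p = 0.00471). TYMS, which spends a folate one-carbon unit on thymidylate, rose from 40.1, 28.0 and 20.7 CPM to 55.8, 50.6 and 53.0 CPM (log2 0.84, SE 0.19, adjusted p = 0.00941). ASS1, MAT2A, TYMS and PYCR3 kept their calls in each fit that left out 1 sample, and ASL lost its call in 5 of the 6.

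**Figure D5:**
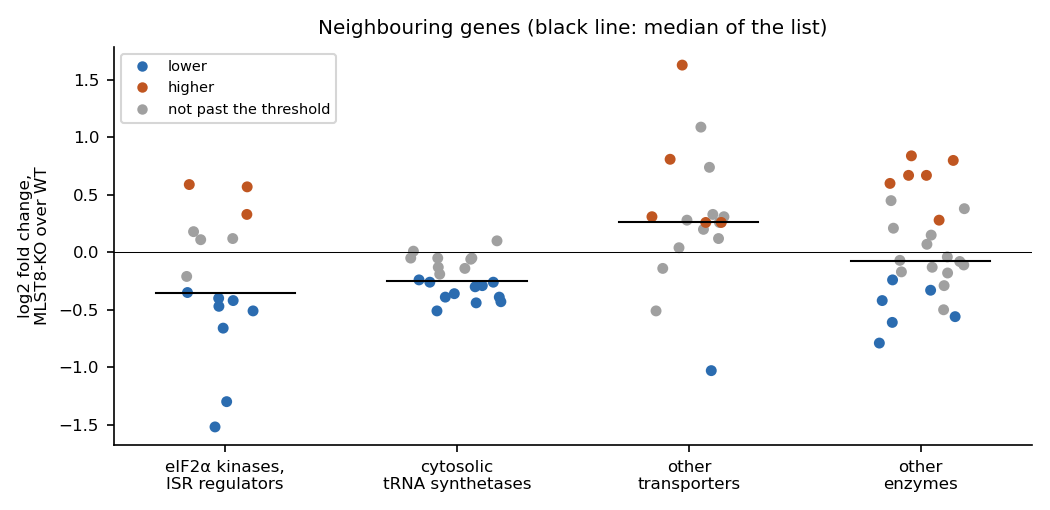
Log2 fold change (y axis, MLST8-KO over WT) of each tested gene in the 4 further lists (x axis), with colors for genes past an adjusted p of 0.05 in edgeR and a black line at the median of each list. The synthetases lie between -0.51 and 0.10, and the other transporters mostly above 0 with SLC6A6 at -1.03.

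Of the 15 called genes among the 34, SLC38A2, MTHFD2, ASNS and TRIB3 passed the test in each of the 6 fits that left out 1 sample and in each of the 8 other alternatives. In all, 10 of the 15 passed in each of the 8 latter, and 0 of the 15 changed sign in any alternative.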

How the data were processed

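PolyA-selected RNA of 6 samples was sequenced on the DNBSEQ platform. Per the study's methods and the submitters' processing notes, the authors removed poor reads and used HISAT for alignment to the GRCh38.p12 genome and Bowtie2 for alignment to reference genes; the tool that estimated abundance is not given in the sources used here. The authors deposited estimated counts per gene, not normalized (12.4% not whole), and TPM, scaled by gene length and depth. Their own comparison (log2 fold changes, p-values, q-values) was not used. The labels and the methods name different RNA extraction kits.

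Estimated counts were rounded and tested in edgeR 4.0.16 (R 4.3.3; TMM, filterByExpr, glmQLFit, glmQLFTest) over 12951 genes with Benjamini-Hochberg adjustment at 0.05. The SE is the absolute log2 fold change over the square root of F. The same comparison was repeated with limma 3.58.1 on log2(TPM + 1) and log2(TPM + 0.1), for genes of at least 1 TPM in 3 samples, and with DESeq2 1.42.0. In edgeR it was repeated with DESeq2 size factors or upper quartile scaling, without a filter or with a minimum of 10 counts throughout, with the replicate number as a block, and with each sample omitted in turn. On log2(TPM + pseudocount) a fold change understates the change of low genes.

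On simulated counts for 12951 genes, 200 of them changed by a log2 fold change of 1, edgeR recovered 90% in the correct direction, and unchanged genes made up 6.74% of the calls. In the data, 2030 genes were called lower and 2116 higher. Every called member except TRIB3 changed by less than 1 on the log2 scale. The simulated rates therefore do not describe the calls reported here. A count of 0 allows up to 3 counts (0.191 to 0.209 CPM, counting error only). Every pair of replicates differed beyond sampling noise, by a chi-square of 6.95 to 26.3 per gene.

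The 34 members, the further lists and the markers were chosen with earlier results of these data known; no list was tested as a set. Named genes are all members, MLST8, and up to 3 lower and 3 higher genes of largest change per further list; CBSL was named as a copy of CBS. An item that the rule would name is not reported here. In the further lists, 2 transporters and 2 enzymes were not matched in the table and 8 listed genes were not tested for low counts. Gene starts, promoters and sequences are from RefSeq GRCh38.p14.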

Additional observations from a re-analysis of the deposited data

How the results depend on the processing

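The count of lower members was 9 to 12 and that of higher members 4 or 5 under DESeq2, DESeq2 size factors, upper quartile scaling, no filter, at least 10 counts and the replicate block. With limma on log2(TPM + 1) or log2(TPM + 0.1), 6 members were lower and 6 higher, with 0 transporters, 2 serine and one-carbon enzymes and 1 stress gene lower and 1 stress gene (JDP2) higher; all genes lower numbered 1115 or 1091 and higher 2689 or 2650, and the median of all genes moved from 0.005 to 0.09 and 0.098. Upper quartile scaling also left 2 lower serine and one-carbon enzymes, and split all genes into 1559 lower and 2546 higher, against 2030 and 2116. At a change of at least 1.5-fold, 2 members were lower and 0 higher.

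Same-numbered samples did not qualify as pairs (correlations of deviations 0.1, 0.06 and 0.14). The replicate block gave 10 lower and 5 higher members: MTHFD1L lost its call, and JDP2 became the 1 stress gene called higher.

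Leaving out 1 sample in turn gave 3 to 12 lower and 1 to 5 higher members. Counts moved by over 1.5 times without MLST8-KO replicate 1 (3 lower, 1 higher), MLST8-KO replicate 2 (4 lower, 3 higher) and WT replicate 2 (6 lower, 1 higher). Single calls were also lost without MLST8-KO replicate 3 (SLC6A9, ALDH18A1) and WT replicate 3 (SHMT2). By group, 0 or 1 transporters were lower and 1 to 4 higher, 1 to 5 serine and one-carbon enzymes lower and 0 or 1 higher, 1 to 4 other enzymes lower, and 1 to 3 stress genes lower and 0 or 1 higher. Over all genes, 850 to 2651 were lower and 971 to 2692 higher. With 2 samples in a group there are fewer residual degrees of freedom.

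Of the 19 members not called, 7 changed sign, none past the threshold. SLC3A2 reached -6.5e-07 in DESeq2 (-0.03 to 0.07 leaving out 1 sample), SLC38A1 0.01 with upper quartile scaling (-0.15 to 0.04), PHGDH -0.10 to 0.12 and DDIT3 0.08 in both limma fits (-0.16 to 0.08). GOT1 reached 0.0045 and 0.0046, CEBPG 0.02 in both and CHAC1 0.07 in both limma fits, and CHAC1 0.02 with upper quartile scaling (-0.16 to 0.07). The cause was not tested.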

Other observations

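WT replicate 1 was the WT sample nearest to the MLST8-KO mean for 16 of the 34 members (47.1%) and for 57.5% of all genes tested. WT replicates 2 and 3 were the nearest for 9 members each (26.5%), against 25.4% and 17.1% of all genes. These shares are descriptions without a test.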
